A study of Homo sapiens with 8 samples.

Results

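The 37 genes described here were the WNT ligands, their Frizzled (FZD) receptors, and the secreted antagonists of the SFRP and DKK families that the promoter arrays covered. They were chosen by symbol, and the arrays held 17132 genes with a symbol in all. The set comprised 19 ligands, 10 receptors, 4 SFRP genes and 4 DKK genes, with 1349 probes of 45 to 60 bases. The arrays measured DNA that was pulled down with an antibody against SMAD3, the transcription factor that carries TGFβ1 signals into the nucleus, in A549 cells, a line from a human lung adenocarcinoma. No RNA was measured on them, so nothing can be read from them about the expression of the genes. All cells were serum-starved and fixed with formaldehyde, and 1 group was left unstimulated (basal level) while the other received TGFβ1 at a dose of 2 ng/ml, for no longer than 2 h. Each array carried the SMAD3 IP in Cy5 and a mock IP of the same condition, made with an anti-FLAG antibody, in Cy3. The extract protocol of the labels calls this control antibody IgG. There were 8 arrays, from 2 conditions with 2 biological replicates each on 2 slides of different probes.

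WNT proteins are secreted, lipid-modified ligands. They bind Frizzled receptors on the cell surface together with LRP coreceptors, and the signal stabilises β-catenin or runs through pathways that do not need it. SFRP proteins carry a Frizzled-like domain and sequester WNT ligands, whereas DKK proteins bind the LRP coreceptors. TGFβ and WNT signals are both known to act in lung development, epithelial repair and fibrosis.

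Each value below is the log2 of SMAD3 IP over mock IP (the ratio), centred on the median of its array, or the log2 signal of 1 IP, centred on the median of that channel. A position is the annotated distance of a probe from the transcription start, negative upstream. Both channels were well above background at 38.7% to 51.5% of the probes of an array. A change was tested only at the probes that were so on all 4 arrays of their slide, which were 629 of the 1349 probes of these genes (46.6%) and 34.0% of all probes. WNT8B, a ligand, had no such probe. The ratios of replicates correlated across probes with r of 0.82 to 0.95, and the mean ratios of the 2 conditions with r of 0.21 and 0.22. The mock signal of the 2 conditions correlated with r of 0.70 on both slides, against 0.92 to 0.99 between replicates. The mock signal therefore differed between conditions too, and changes are given for each channel beside the ratio. The adjusted p-values from limma rest on the spread between 2 replicates per condition. The permutation p-values of the peak fits come from shuffles of the ratios between probes within each replicate. They measure no spread between replicates, and the shuffles do not keep neighbouring probes together.

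The first question was which of these genes had a SMAD3 peak in each condition. A peak of the shape that sonicated fragments give was fitted to all probes of a gene. A gene was called bound with a permutation p under 0.01 in both replicates and a height over 1.5. The height is the fitted ratio of SMAD3 IP to mock IP at the centre, and not a value measured at 1 probe. At the basal level FZD4 and WNT16 were bound, 2 of 37 genes, beside 3.47% of the 16876 genes fitted. After TGFβ1, FZD10, SFRP2, DKK4 and WNT9B were bound, 4 of 37, beside 2.78% of all genes. No gene of the set was bound in both conditions, which says little with 2 and 4 of 37 bound and was not tested. The share of all genes bound in both conditions is not given here, so this cannot be read as a trait of the set. The other 31 genes had heights of 1.07 to 16 and a lowest p of 0.0187, beside median heights over all genes of 2.30 (basal) and 2.00 (TGFβ1). With the sign of the ratio reversed, so that peaks of mock IP over SMAD3 IP were sought, the same rule called SFRP2, WNT11, WNT2B and WNT3 at the basal level, beside 10.1% of all genes, and FZD2, SFRP1, SFRP5 and WNT2B after TGFβ1, beside 9.77%. The reversed peaks were thus 4 of 37 in each condition. Under a p threshold of 0.001 only FZD4 was left at the basal level, beside 2.1% of all genes. FZD10 and SFRP2 were left after TGFβ1, beside 1.77%.

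**Figure D1:**
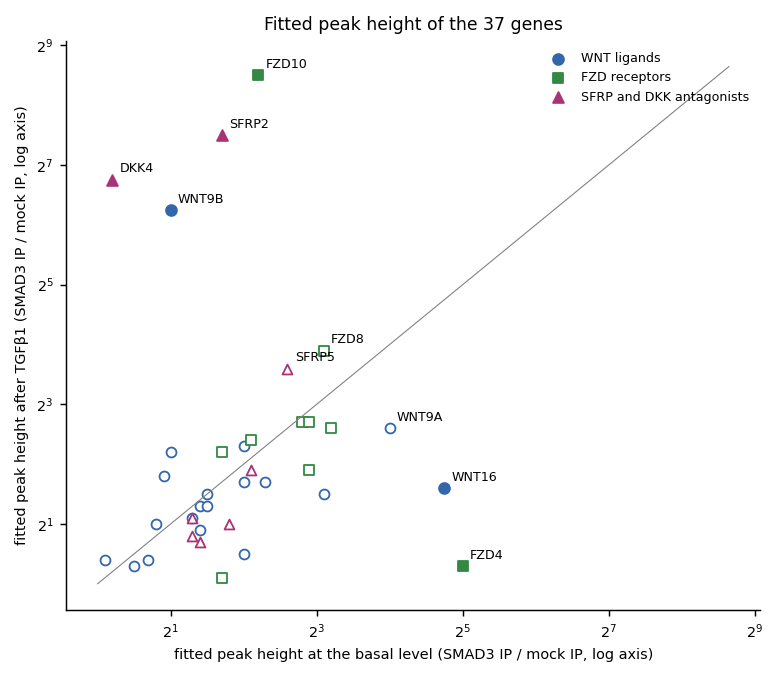
Fitted peak height of the 37 genes at the basal level (x axis) and after TGFβ1 (y axis), both as the ratio of SMAD3 IP to mock IP on log axes. Each point is 1 gene, filled where it was bound in either condition, and the line marks equal heights. FZD10, SFRP2, DKK4 and WNT9B lie far above the line with heights of 362, 181, 108 and 76.1 after TGFβ1, and FZD4 and WNT16 far below it with 32 and 26.9 at the basal level.

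Among the antagonists, the region upstream of SFRP2 showed the largest rise of all tested probes of the 37 genes. SFRP2 (chromosome 4) encodes a secreted protein that binds WNT ligands. At -4104 bp its log2 ratio was 0.27 and -1.48 at the basal level and 10.08 and 9.61 after TGFβ1, so both stimulated arrays were far above both unstimulated ones. The change was 10.45 (SE 0.63; limma, adjusted p = 0.000442). The SMAD3 IP signal there rose by 11.20 (adjusted p = 4.77e-09), while the mock IP signal changed by 0.87 (adjusted p = 0.317). The next probes downstream, at -3813 and -3533 bp, were not well above background in either channel on the unstimulated arrays, and their ratios after TGFβ1 were 9.70 and 9.5, and 7.10 and 7.30. After TGFβ1 the mock IP, too, was well above background at both probes on both arrays, so the mock signal was also higher there. The SMAD3 IP signals at these probes were at least 4200-fold and 4740-fold higher after TGFβ1 (adjusted p = 0.00129 and 0.00119 in the fit over all probes). The limit on each array was the higher of the lowest signal well above background and the probe's own signal, which here was the probe's own. At -3297 bp the change had fallen off to 2.29 (SE 0.23; adjusted p = 0.00147). The raised stretch thus held 4 neighbouring probes, and probes at -4261 and -3074 bp on either side were not well above background in the SMAD3 IP after TGFβ1. Averaged within 250 bp of the joint centre, the basal ratio of SFRP2 was 0.09 ± 0.06 (SD, n = 2) and the ratio after TGFβ1 was 8.40 ± 0.0028 (SD, n = 2). In a window that began 2000 bp upstream and ended 800 bp downstream, which leaves this stretch out, the mean change of SFRP2 was 0.31 (adjusted p = 0.367).

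DKK4 (chromosome 8), which encodes an inhibitor of the LRP coreceptors, had a fitted peak of 108 after TGFβ1, but its probes did not form 1 continuous stretch. The probe nearest the fitted centre, at -5087 bp, was itself not raised after TGFβ1. At -4521 bp the ratio was -2.15 and -1.25 at the basal level and 7.51 and 7.08 after TGFβ1, a change of 9.0 (SE 0.39; adjusted p = 0.000279). Both channels took part, with a rise of 5.02 in the SMAD3 IP (adjusted p = 0.000191) and a fall of 3.86 in the mock IP (the change was -3.86, adjusted p = 0.0309). At -5319 bp the SMAD3 IP signal was -0.75 and 0.01 at the basal level, where 1 of the 2 arrays was well above background, and 13.55 and 13.67 after TGFβ1. At -5087 bp, between them, the SMAD3 IP signal was 2.74 and 4.87 at the basal level and -0.05 and 0.20 after TGFβ1, where 1 of the 2 arrays was well above background. The mock IP signal there was 6.81 and 8.17 at the basal level and not well above background after TGFβ1, so both signals were lower after TGFβ1. The joint peak of DKK4 over all arrays lay on a probe that was not above background in the mock IP, and its change was 0.31 (adjusted p = 0.635). This value depended on the probes averaged and the background correction. The change was 5.51 with probes within 500 bp (adjusted p = 0.000302), 3.58 with normexp (adjusted p = 0.00621) and 10.71 with only probes well above background in 1 channel on every array (adjusted p = 0.000104).

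SFRP5 (chromosome 10) and SFRP1 (chromosome 8), further WNT-binding antagonists, changed mainly in or together with the mock IP. At the SFRP5 probe at -1186 bp the ratio was -3.12 and -3.70 at the basal level and 3.74 and 3.69 after TGFβ1, so the sign turned in both replicates. The change of 7.12 (SE 0.28; adjusted p = 0.000271) was made up of a SMAD3 IP rise of 4.42 (adjusted p = 7.78e-05) and a mock IP change of -2.77 (adjusted p = 0.00854). A neighbouring probe at -1072 bp changed by 6.01 (SE 0.31; adjusted p = 0.000336) with the same split. Downstream of the start, 6 SFRP5 probes between 127 and 1314 bp fell, with a median change of -1.71, and 3 of them passed in the mock IP alone. At SFRP1 the ratio at -2718 bp was -0.95 and -0.22 at the basal level and -6.80 and -6.93 after TGFβ1. Its mock IP signal rose by 6.73 (adjusted p = 0.00255), and the SMAD3 IP signal changed by 0.34 (adjusted p = 0.776). SFRP4 had 1 called probe among its 5 tested probes, at 342 bp, with a change of -2.19.

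At their tested probes, the DKK genes other than DKK4 had smaller changes. The largest were 2.70 at -389 bp of DKK2 (adjusted p = 0.00419) and -3.33 at -704 bp of DKK3 (adjusted p = 0.00078), and in neither did 1 channel pass alone. DKK1, an LRP inhibitor that is itself a WNT target gene, had 3 probes that fell and 0 that rose among its 6 tested probes. At its start, at 21 bp, the ratio was 0.37 and 0.38 at the basal level and -1.52 and -1.61 after TGFβ1, and the SMAD3 IP signal changed by -2.01 (adjusted p = 0.0363). The 2 pairs of values did not overlap at this probe. The other called falls of DKK1 did not pass in the SMAD3 IP. At 336 bp the ratio changed by -2.17 (adjusted p = 0.00193) with a mock IP rise of 3.09 (adjusted p = 0.00747). The SMAD3 IP there changed by 0.99 (adjusted p = 0.329). At 550 bp the ratio changed by -1.76 (adjusted p = 0.00764), and neither channel passed alone.

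**Figure D2:**
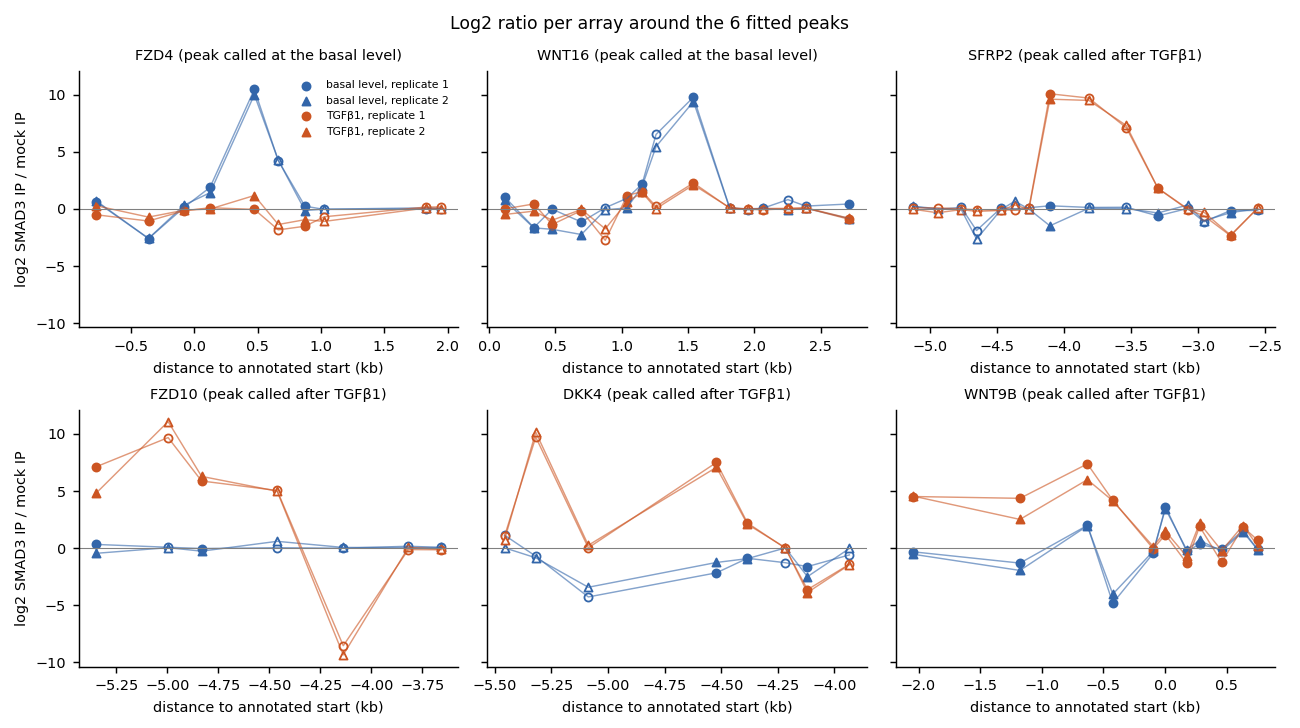
Log2 of SMAD3 IP over mock IP (y axis) against the annotated distance from the start in kb (x axis) around the 6 called peaks, with 1 line per array, blue for the basal level, orange for TGFβ1, circles for replicate 1 and triangles for replicate 2. Open symbols mark probes that were not well above background in both channels on all 4 arrays. SFRP2 and FZD10 show several neighbouring probes raised after TGFβ1, and FZD4 and WNT16 raised probes at the basal level, while the raised DKK4 probes at -5319 and -4521 bp are separated by 1 near 0.

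Among the receptors, FZD4 showed the largest fall and FZD10 an upstream rise. FZD4 (chromosome 11) encodes a receptor for WNT ligands and for norrin. At 473 bp its ratio was 10.47 and 9.99 at the basal level and -0.04 and 1.17 after TGFβ1, a change of -9.66 (SE 0.47; adjusted p = 0.000323). The SMAD3 IP signal changed by -11.42 (adjusted p = 7.32e-09) and the mock IP signal by -1.83 (adjusted p = 0.0313), so both signals were lower and the SMAD3 IP far more. At 662 bp the SMAD3 IP signal was 11.90 and 11.66 at the basal level and -0.13 and 0.74 after TGFβ1, where it was well above background on 1 of the 2 arrays. The probe at -80 bp, near the start, had SMAD3 IP means of 11.73 and 11.31 in the 2 conditions, so the fall was local. Within 250 bp of the joint centre the basal mean was 7.24 ± 0.16 (SD, n = 2) and the mean after TGFβ1 was -0.52 ± 0.60 (SD, n = 2; adjusted p = 0.000513).

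FZD10 (chromosome 12), a further WNT receptor, had the highest fitted peak of the set, 362 in both stimulated replicates. Heights were fitted in steps, so equal values do not measure how closely the replicates matched. The mock IP was not well above background at the probe nearest the centre, so the height is not a measured enrichment. The FZD10 probes at -5348 and -4832 bp rose by 6.04 (SE 0.82; adjusted p = 0.00383) and 6.23 (SE 0.26; adjusted p = 0.000274). Their SMAD3 IP signals rose by 8.17 and 8.73 (adjusted p = 1.02e-07 and 3.15e-08), and at -4832 bp the mock IP rose too, by 2.43 (adjusted p = 0.0322). At -4996 bp, between them, the SMAD3 IP was not well above background at the basal level and was at least 1390-fold higher after TGFβ1, with the limit set as for SFRP2 (adjusted p = 0.00243 in the fit over all probes), while the mock IP was not well above background on any of the 4 arrays. A change in the other channel lay beside this peak. At -4138 bp the mock IP signal was not well above background at the basal level and was 8.31 and 8.20 after TGFβ1. Nearer to the start, at -1440 bp, the ratio went from -7.12 and -6.88 to -0.30 and -0.83, a rise of 6.44 (SE 0.28; adjusted p = 0.000284) in which the mock IP signal changed by -6.40 (adjusted p = 0.00173) and the SMAD3 IP signal by 0.11 (adjusted p = 0.935). Downstream of the start, 10 FZD10 probes between 237 and 2145 bp fell, the longest stretch of called probes in 1 direction at most 700 bp apart in the set, with changes of -3.78 to -1.02. Of these, 1 passed in the SMAD3 IP alone, 4 in the mock IP alone, 1 in both and 4 in neither.

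FZD1 (chromosome 7) stood out for a change close to its start. At -74 bp the ratio was -4.23 and -3.80 at the basal level and 2.60 and 2.40 after TGFβ1, a rise of 6.51 (SE 0.26; adjusted p = 0.000272). The SMAD3 IP signal rose by 4.26 (adjusted p = 0.000398) and the mock IP signal changed by -2.14 (adjusted p = 0.101). The neighbouring probe at 99 bp, 173 bp away, fell by 2.63 (SE 0.27; adjusted p = 0.00174) with a mock IP rise of 2.75 (adjusted p = 0.0241) and no change called in the SMAD3 IP (0.01, adjusted p = 0.993). FZD1 was not bound in either condition. Its best peak fit centred near 894 bp in both. The height was 7.46 at the basal level (permutation p = 0.0866 and 0.0428 in the 2 replicates). After TGFβ1 it was 3.73 (permutation p = 0.203 and 0.259). Opposite neighbours were also found at FZD9, where the probe at -2531 bp rose by 5.16 (SE 1.19; adjusted p = 0.0199) and the probe at -2289 bp fell by 4.81 (SE 0.22; adjusted p = 0.000293). The unstimulated replicates of the first differed widely, with ratios of -1.30 and -4.87, and without either of the stimulated replicates it was no longer called (adjusted p = 0.115 and 0.104).

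The other receptors moved less. FZD2 had 1 probe that rose and 9 that fell among 14 tested, the largest at -5113 bp (-4.23, adjusted p = 0.00191), where the mock IP rose by 3.64 (adjusted p = 0.00494). FZD8 had its largest rise at -3139 bp (3.95, adjusted p = 0.00315), with neither channel past the threshold alone. At the start of FZD7 the SMAD3 IP was above the mock IP in both conditions. The probe at -23 bp had ratios of 4.39 and 4.26 at the basal level and 2.42 and 2.09 after TGFβ1, and the probe at -128 bp did not pass the test (-0.18, adjusted p = 0.575). FZD3, FZD5 and FZD6 had 8, 17 and 6 tested probes, of which 3, 2 and 0 rose and 1, 5 and 2 fell.

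The sequences below show what lies directly before the start of genes with a called change at or near it, with 1 gene for each role, chosen after their values were seen. They are the 250 bases before the start in RefSeq (GRCh38.p14, plus strand, 5′ to 3′). Capitals mark the 5-base words CAGAC (the SMAD binding element) and GGCGC and GGCCG (GC-rich words), read on both strands, so that overlapping matches run together. The array annotation names no genome build, and its starts may differ from the RefSeq starts.
FZD1 (chr7:91264183-91264432): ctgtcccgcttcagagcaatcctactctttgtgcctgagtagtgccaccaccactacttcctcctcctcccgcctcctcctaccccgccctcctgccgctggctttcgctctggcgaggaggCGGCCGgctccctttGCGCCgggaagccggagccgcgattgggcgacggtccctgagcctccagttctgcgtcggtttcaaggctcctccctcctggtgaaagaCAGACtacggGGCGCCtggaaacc
WNT9B (chr17:46851333-46851582): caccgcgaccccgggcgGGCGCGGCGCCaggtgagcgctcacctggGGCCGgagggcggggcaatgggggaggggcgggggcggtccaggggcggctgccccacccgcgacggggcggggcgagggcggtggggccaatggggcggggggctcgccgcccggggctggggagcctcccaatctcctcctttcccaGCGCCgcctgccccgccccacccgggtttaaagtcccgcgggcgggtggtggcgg
DKK1 (chr10:52314031-52314280): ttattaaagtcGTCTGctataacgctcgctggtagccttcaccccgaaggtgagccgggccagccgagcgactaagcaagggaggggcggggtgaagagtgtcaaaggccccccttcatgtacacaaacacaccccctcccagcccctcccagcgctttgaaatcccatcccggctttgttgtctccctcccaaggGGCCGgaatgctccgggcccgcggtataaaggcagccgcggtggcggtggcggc
The FZD1 window held 1 match to CAGAC, 3 to GGCGC and 2 to GGCCG, the WNT9B window 0, 4 and 1, and the DKK1 window 1, 0 and 1. Of 27305 windows of this length, 37.8% held CAGAC, 44.2% held GGCGC and 44.1% held GGCCG. Of the 37 genes, 25 had a window in the table, and 11, 21 and 20 of these held the 3 words. The matches are a description of letters, and the windows of FZD1, WNT9B and DKK1 had GC contents of 65.2%, 81.2% and 62.8%. GGCGC and GGCCG hold only G and C, and the GC content of all windows is not given here. The shares with these words are therefore not read as enrichment, which was not tested.

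Among the ligands, WNT16 fell and WNT9B rose. WNT16 (chromosome 7), a ligand known for its role in cortical bone, had a ratio at 1541 bp of 9.79 and 9.40 at the basal level and 2.27 and 2.11 after TGFβ1. The change was -7.40 (SE 0.25; adjusted p = 0.000267), the SMAD3 IP signal changed by -8.31 (adjusted p = 6.9e-08), and the mock IP signal by -0.80 (adjusted p = 0.372). At 1259 bp the SMAD3 IP was 7.51 and 11.78 at the basal level and 0.05 and -0.15 after TGFβ1, where 1 of the 2 arrays was well above background. Further downstream, at 1814 and 1953 bp, the SMAD3 IP was not well above background on any array. The WNT16 probes nearer to the start had higher SMAD3 IP means after TGFβ1, 5.28 against 4.11 at 1154 bp and 4.41 against 3.20 at 1041 bp (means over 2 arrays). No change of the ratio was called at either of these probes. Averaged over the window around the start that was used for SFRP2, the change of WNT16 was 0.27 (adjusted p = 0.157), opposite in sign to that at the peak, which lies outside this window.

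WNT9B (chromosome 17), a ligand that acts in kidney and facial development, had 6 probes that rose and 5 that fell, with the largest rises at 4 probes from -2046 to -424 bp. At -424 bp the ratio was -4.82 and -4.02 at the basal level and 4.19 and 4.15 after TGFβ1, a rise of 8.59 (SE 0.33; adjusted p = 0.00027). The SMAD3 IP rose by 4.07 (adjusted p = 0.000169) and the mock IP changed by -4.59 (adjusted p = 0.0028). The probes at -630, -1177 and -2046 bp rose by 4.72, 5.07 and 4.97 (adjusted p = 0.00178, 0.00355 and 0.000289). At these 3 probes the SMAD3 IP rose by 4.55 to 5.80, and mock IP changes of -0.23 to 0.68 did not pass the test. At the start, at 3 bp, the ratio went the other way, from 3.63 and 3.45 to 1.19 and 1.49 (-2.20, adjusted p = 0.00193), and at -96 bp the change of 0.41 was not called (adjusted p = 0.193). The joint peak at -630 bp rose by 4.72 (SE 0.51; adjusted p = 0.00511), from 1.98 ± 0.03 to 6.69 ± 0.98 (SD, n = 2 each).

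WNT9A, WNT3A and WNT5B had the next largest rises among the ligands, and WNT3A, a ligand of the β-catenin pathway, did so in the SMAD3 IP. Its ratio at -1100 bp was -4.44 and -4.39 at the basal level and 2.05 and 1.78 after TGFβ1. The SMAD3 IP rose by 5.15 (adjusted p = 4.78e-05), and the mock IP changed by -1.06 (adjusted p = 0.353). The next WNT3A probe, at -908 bp, fell by 3.46 (SE 0.34; adjusted p = 0.00145) through a mock IP rise of 2.69 (adjusted p = 0.0304). At -2499 bp of WNT5B, a ligand mostly linked to β-catenin-independent signals, the ratio was 0.05 and -0.76 at the basal level and 5.38 and 5.51 after TGFβ1, and the mock IP changed by -0.06 (adjusted p = 0.911). A second WNT5B probe, at 1088 bp, fell by 4.38 (SE 0.25; adjusted p = 0.000407), also in the SMAD3 IP (-4.22, adjusted p = 0.000138). At 2320 bp of WNT9A the ratio was -2.71 and -3.41 at the basal level and 4.20 and 3.84 after TGFβ1, and both channels passed, by 2.93 in the SMAD3 IP and -4.04 in the mock IP. The peak fit of WNT9A centred elsewhere, near 87 bp, with a basal height of 16 and one of 6.06 after TGFβ1, and the gene was not bound.

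Several ligands fell in the SMAD3 IP. The probes of WNT7B were annotated far downstream of the start, and at 26386 and 26621 bp its ratio fell by 5.19 and 5.77 (SE 0.38 and 0.37; adjusted p = 0.000654 and 0.000509). The SMAD3 IP signals there changed by -7.42 and -5.95 (adjusted p = 2.01e-07 and 4.38e-06). WNT10A at -2916 bp went from 5.04 and 5.16 to -0.09 and -1.05, with a SMAD3 IP change of -6.21 (adjusted p = 2.15e-05). WNT3 at -3878 bp went from 3.63 and 3.90 to -1.02 and -0.43, with a SMAD3 IP change of -3.70 (adjusted p = 0.000559). WNT8A had 1 called probe among 4 tested, at -490 bp, and it fell by 3.56 (SE 0.24; adjusted p = 0.000566).

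Other ligands changed through the mock IP. At 1946 bp of WNT10B the ratio went from 0.41 and -0.39 to -6.10 and -6.94. The mock IP there rose by 7.57 (adjusted p = 0.00353), and the SMAD3 IP changed by 1.11 (adjusted p = 0.277). Rises of the mock IP were also called at -2611 bp of WNT2B (mock IP 7.55, adjusted p = 0.00486), at -2818 bp of WNT11 (6.51, adjusted p = 0.00176) and at -1565 bp of WNT6 (7.61, adjusted p = 0.012), whose ratios fell by 5.84, 5.74 and 4.87. In the other direction, the mock IP fell at 1888 bp of WNT3 (-7.80, adjusted p = 0.00164), 780 bp of WNT10A (-5.48, adjusted p = 0.0235) and 166 bp of WNT1 (-4.83, adjusted p = 0.00229), and the ratios there rose by 5.14, 5.77 and 4.61. WNT1 and WNT10B lie next to each other on chromosome 12 and shared 32 probes, which are counted once in the totals.

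Over all 629 tested probes of the 37 genes, 138 rose and 200 fell, that is 21.9% and 31.8%, beside 23.2% and 30.7% of the 160926 probes tested in all. The shares were thus near those of all probes, and the median change was -0.21 against -0.18. By role, 90 of 371 probes of the ligands rose and 104 fell, 27 of 160 of the receptors rose and 62 fell, and 21 of 98 of the antagonists rose and 34 fell. A called probe was found in all 36 genes with a tested probe and calls in both directions in 32 of them (88.9%), beside 93.8% and 65.8% of the 16331 genes with a tested probe, which had a median of 7.0 tested probes against 18.5 in the set. No test was made of these shares, which move with the number of probes. At the joint peak, 5 genes rose and 9 fell, beside 16.5% and 24.1% of the 16021 genes tested, and 3 rose when either stimulated replicate was left out. The 5 were SFRP2, FZD10, WNT9B, WNT6 and WNT5A. Of the probes averaged there, 0 of 2 at SFRP2, 1 of 2 at FZD10 and 0 of 1 at WNT6 were well above background in both channels on all arrays. Between 4 and 6 fell with 1 replicate left out. The 9 were FZD4, WNT16, WNT7B, FZD6, WNT3, SFRP4, SFRP5, FZD1 and WNT2B, of which FZD4 and WNT16 (1 of 2 probes each), FZD6 (1 of 3) and WNT3 (2 of 3) also held probes short of that limit.

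**Figure D3:**
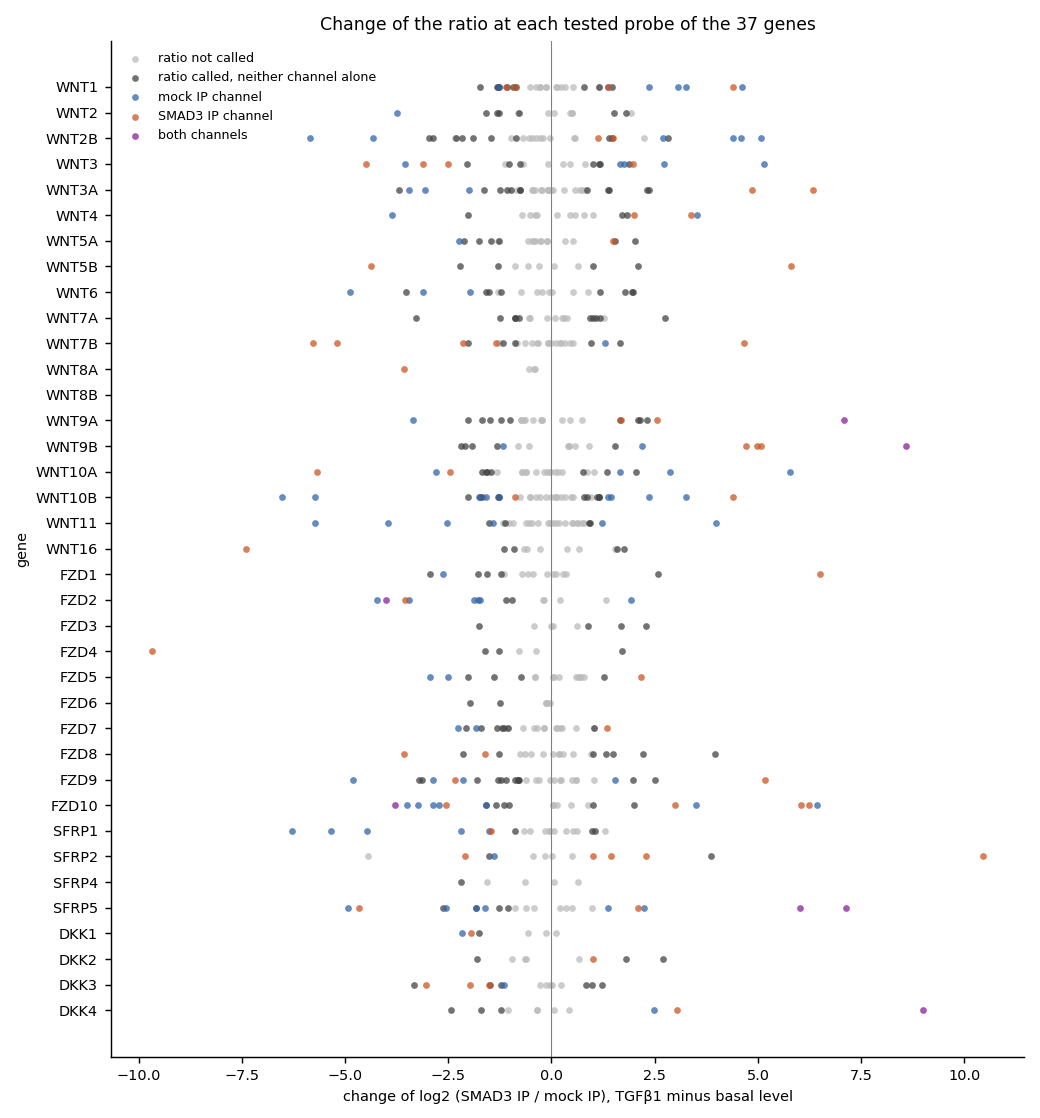
Change of the log2 of SMAD3 IP over mock IP from the basal level to TGFβ1 (x axis) at each tested probe of each gene (y axis, 1 line per gene), coloured by the channel that passed the test alone in the direction of the change. The points range from -9.66 (FZD4) to 10.45 (SFRP2), most genes have called probes on both sides of 0, and WNT8B has none.

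Enrichment within a condition was called at an adjusted p under 0.05 and a log2 ratio of at least 1, or at most -1 for mock IP over SMAD3 IP. At the basal level, 148 of the 629 probes were called with SMAD3 IP over mock IP and 186 with mock IP over SMAD3 IP, beside 20.1% and 32.4% of all probes. After TGFβ1 the counts were 133 and 215, beside 18.7% and 36.7%. This balance depended on the centring. Of the probes called, 44.3% at the basal level and 38.2% after TGFβ1 had SMAD3 IP over mock IP, against 63.6% and 60.4% after loess and 59.8% and 57.8% with the deposited ratios, which are not centred. The receptors had the highest share with SMAD3 IP over mock IP, 59 of 160 (36.9%) at the basal level and 49 (30.6%) after TGFβ1. For the ligands it was 65 of 371 (17.5%) and 61 (16.4%), and for the antagonists 24 of 98 (24.5%) and 23 (23.5%). Probes of 1 gene share fragments and are not independent, and no test was made of these shares. Within 250 bp of a start, 79.6% of the probes of these genes were tested, against 31.9% between -6000 and -4000 bp, and the median basal ratio was 0.37 near the start and -1.04 upstream. The corresponding medians over all genes were 0.22 and -0.63, so position and detection move with these shares.

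The channels were then compared. In the SMAD3 IP, 50 probes of the set rose and 43 fell, beside 6.18% and 9.63% of all probes, and in the mock IP 61 rose and 50 fell, beside 10.1% and 11.3%. Of the 338 called changes of the ratio, 58 passed in the SMAD3 IP alone, 83 in the mock IP alone, 7 in both and 190 in neither, each in the direction of the change. The mock IP alone thus accounted for 24.6% of the calls, against 31.6% over all probes, and the SMAD3 IP alone for 17.2%, against 17.9%. The number of calls within 1 channel varied with the replicate left out. Without stimulated replicate 1 or 2 there were 0 calls in the mock IP by limma (118 and 124 probes at an unadjusted p under 0.05) and 18 and 21 in the SMAD3 IP. Without unstimulated replicate 1 or 2 there were 240 and 351 in the mock IP and 32 and 77 in the SMAD3 IP. Of the 6 bound genes, SFRP2, FZD4, WNT16, FZD10 and WNT9B changed at their peak probes mainly in the SMAD3 IP. At the WNT9B peak probe, -630 bp, the mean SMAD3 IP signal rose from 2.65 to 7.20 with no change called in the mock IP. The largest change of WNT9B, at -424 bp, came from both channels, as did that of DKK4 at -4521 bp. At -5319 bp of DKK4 the SMAD3 IP mean rose from -0.37 to 13.61 and the mock IP mean from 0.24 to 3.62. This probe was not tested for a change. At -5087 bp, the DKK4 probe nearest the fitted centre, both signals fell.

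**Figure D4:**
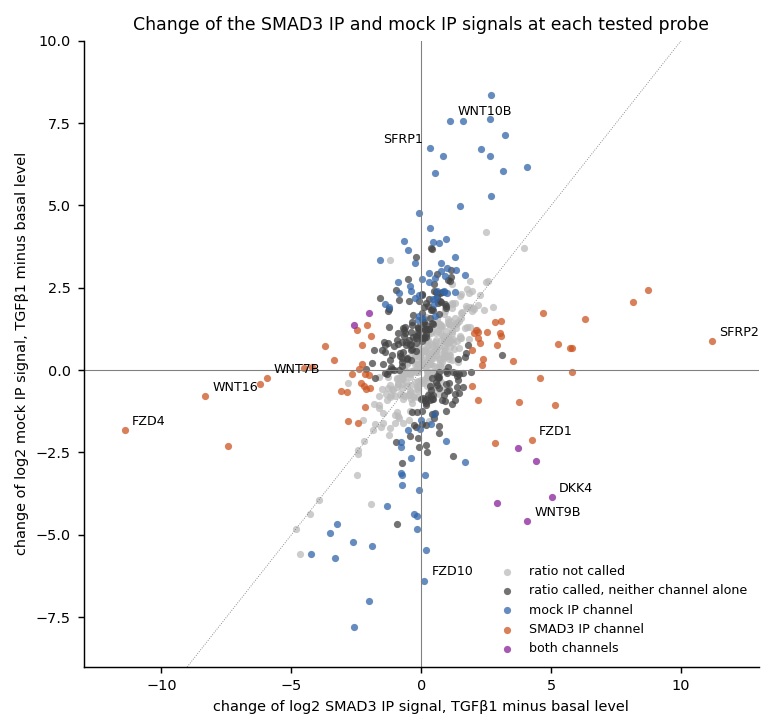
Change of the log2 SMAD3 IP signal (x axis) and of the log2 mock IP signal (y axis) from the basal level to TGFβ1 at each of the 629 tested probes, coloured by the channel that passed alone. Grey points were not called for the ratio, and the dotted line marks equal changes of both signals. SFRP2 (11.20) and FZD4 (-11.42) lie at the ends of the x axis, and WNT10B, SFRP1 and FZD10 mark probes whose change lay in the mock IP.

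Neighbouring probes often changed in opposite directions. Among called probes of these genes at most 250 bp apart with no other called probe between them, 65 of 109 pairs (59.6%) went the same way, beside 62.8% over all probes. The most opposed pairs of a gene included WNT3A at -1100 and -908 bp, FZD9 at -2531 and -2289 bp, and FZD1 at -74 and 99 bp. Stretches of at least 2 called probes at most 700 bp apart in the same direction were found in 34 of the 36 genes with a tested probe, upward in 24 and downward in 30 (94.4%, 66.7% and 83.3%), beside 62.2%, 36.9% and 47.7% of all genes, which had fewer tested probes. The longest were downward, 10 probes at FZD10, 6 each at FZD9 and SFRP5, and 5 each at FZD2 and FZD7. In this order, 1, 0, 0, 1 and 0 of their probes passed in the SMAD3 IP alone. In the mock IP alone, 4, 2, 3, 3 and 1 passed. Another FZD10 probe passed in both channels, and the remaining probes passed in neither. The longest upward ones held 4 probes and included WNT10A from -71 to 908 bp and WNT3 from 1135 to 1888 bp, in which 3 and 4 probes passed in the mock IP alone.

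The rest of the WNT pathway, a list of 49 coreceptors, modulators and signalling genes of which 47 were on the arrays, gave similar shares. Of its 587 tested probes, 126 rose and 168 fell (21.5% and 28.6%), and the median change was -0.26. SOST, a secreted LRP inhibitor, was bound at the basal level, and TCF7, a transcription factor of the pathway, after TGFβ1. At the joint peak, 10 of 45 genes rose and 13 fell.

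With the normexp background correction in place of the processed signals, the changes at SFRP2, FZD4, WNT16, DKK4, FZD1, SFRP1, WNT2B, WNT3A, WNT7B and WNT9A given above still passed at their largest probe. Those at WNT9B, WNT5B, WNT10B and SFRP5, and at -1440 bp of FZD10, kept their sign and no longer passed (4.62, 1.26, -2.82, 1.71 and 3.01, adjusted p = 0.0801, 0.397, 0.237, 0.272 and 0.189). The same held at -389 bp of DKK2 (1.09, adjusted p = 0.152), -704 bp of DKK3 (-0.31, adjusted p = 0.49), -3139 bp of FZD8 (0.80, adjusted p = 0.167), -2531 bp of FZD9 (2.83, adjusted p = 0.26), 2145 bp of FZD10 (-0.99, adjusted p = 0.246) and 992 bp of SFRP5 (-2.07, adjusted p = 0.0525). At the joint peak, FZD10, WNT16 and WNT9B also kept their sign and no longer passed (4.51, -4.79 and 2.05, adjusted p = 0.0833, 0.108 and 0.339).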

How the data were processed

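SMAD3 IP (Cy5) and mock IP (Cy3) DNA from A549 cells had been compared on 8 two-colour Agilent promoter arrays. The deposited files held the intensity of each spot in both channels from Agilent Feature Extraction 9.5.1.1 (named in the submitters' processing notes), which the authors had background-subtracted, detrended and scaled per dye, with surrogates for signals not above background, and a series matrix of log2 ratios. Per the file headers nothing had been normalized between arrays, and no genome build is named, so probes are placed by chromosome and annotated distance. The deposited log2 ratios equalled those of the processed intensities within 3.13e-06. Flags for signals well above background and for outliers came from the same files.

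Control spots and 1404 outlier probes were left out, spots of a probe were averaged, and the array median was subtracted from log2 (Cy5/Cy3) and from each log2 channel. This left 473007 probes. Peaks were fitted per gene with at least 4 probes (fragments of 200 to 700 bp, centres on a 25 bp grid within 250 bp of a probe), and permutation p-values came from 10 shuffles of the ratios between probes. Changes and enrichment were tested with limma 3.58.1 (lmFit and eBayes, Benjamini-Hochberg over all features tested) in R 4.3.3, and Python 3.11.15 was used for the rest. Every adjusted p is from limma unless a permutation is named. Both kinds of test were checked on simulated data. Groups and replicates came from the labels. The arrays lay on slides of their own scanned on 1 day, so no batch could be tested. The number of arrays and the signal over background limit the precision.

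The genes and the list of the rest of the WNT pathway were chosen with earlier results of these data known. Named were bound genes, the 4 genes per role with the largest called change in each direction, WNT16, FZD1 and WNT9A, and genes with runs of called probes, by counts and examples. The further probes and genes named were chosen after their values were seen. Alternatives were normexp with an offset of 50, loess, the series matrix values, quantile normalization of channels, other filters, windows and thresholds, the replicate block, separate slides, and leaving out each replicate. The replicate numbers were not used to pair samples. Promoter sequences are from RefSeq.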

Additional observations from a re-analysis of the deposited data

How the results depend on the processing

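Bound genes numbered 2 at the basal level and 4 after TGFβ1, and these counts held under normexp, loess, longer fragments, a height of 2 and each replicate alone, although normexp gave FZD8 in place of WNT9B after TGFβ1. A p threshold of 0.001 left 1 and 2, and reversed ratios gave 4 at the basal level. At the joint peak, 8 genes rose with probes within 500 bp or with the nearest probe. Leaving out a replicate gave 3 to 5 genes that rose and 4 to 6 that fell. The sign changed for WNT16 (0.27 in the window from 2000 bp upstream to 800 bp downstream) and the uncalled DKK4 joint peak (-0.24 without unstimulated replicate 2, with a range up to 0.87 over the replicates left out). The DKK4 joint peak passed with probes within 500 bp (5.51, adjusted p = 0.000302), normexp (3.58, adjusted p = 0.00621) and only probes well above background in 1 channel on every array (10.71, adjusted p = 0.000104). Normexp left 2 and 2 genes at the joint peak, 24 probes that rose and 43 that fell, 30 and 17 enriched probes (SMAD3 IP over mock IP and the reverse) at the basal level and 68 and 59 after TGFβ1, and in the channels 0 and 0 (SMAD3 IP) and 5 and 0 (mock IP) that rose and fell, with 28 and 3, and 53 and 4, at an unadjusted p under 0.05 in limma. The cause was not tested. Probes with mock IP over SMAD3 IP numbered 117 and 130 under loess, and 136 after TGFβ1 in the series matrix, where the ratios are not centred. Centring set the median change of all tested probes at -0.18, against -0.03 after loess and -0.04 in the series matrix. Quantile normalization gave 107 and 68 probes in the SMAD3 IP and 173 and 105 in the mock IP that rose and fell, and without the background filter 107 and 93 changed in the mock IP. Leaving out a replicate gave 12 to 63 and 6 to 16 in the SMAD3 IP, and 0 to 280 and 0 to 130 in the mock IP. The deviations of samples with the same replicate number correlated with r of 0.01 and 0.02, so the ratios showed no effect shared by replicate number. This cannot tell whether the samples were paired in the experiment. With the replicate block, 135 probes rose and 185 fell, 4 and 7 genes changed at the joint peak, and the largest probe of each gene named for its role and direction stayed called. A ratio could be tested at 46.6% of the probes of these genes, which limits what could be seen at the others.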
